A study of Mus musculus with 10 samples.

Results

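The genes described here are 36 genes of endoplasmic reticulum (ER) stress and of the secretory pathway, taken by gene name from a table of expression in mouse stomach tumours. Each of the 36 had 1 row with reads among the 56748 genes of the table, and all 36 were among the 16750 genes tested. A further row of the table also carries the name Ddit3, is 105 bases long and was listed at 0 in every library, so it was not used. The study sequenced RNA from 5 inflamed-type and 5 desert-type tumours, with 1 library per tumour. The inflamed tumours carried floxed alleles of Apc and of Trp53 with a tamoxifen-inducible Cre driven by Tff1 (Tff1-CreERT2;Apcfl/fl;Trp53fl/fl), and their treatment was labelled as genetic mutation. The desert tumours were orthotopic allografts whose genotype was labelled as wild type. Whether wild type describes the host or the graft, and whether the graft was 1 line or clone, is not stated in the labels. They state no age or time point either. Tumour type therefore coincided with genotype and with how the tumour was made, and these cannot be told apart. The protocol text speaks of 6 tumours, while the series holds 10, and all 10 were used.

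Proteins that enter the secretory pathway are folded, glycosylated and joined by disulfide bonds in the ER. When misfolded protein accumulates there, 3 kinds of membrane sensor respond: Ire1 (its ubiquitous form encoded by Ern1, its form restricted to mucous epithelia by Ern2), Atf6 and Perk (Eif2ak3). Ire1 splices the messenger RNA of the transcription factor Xbp1, Atf6 is cut in the Golgi to release a transcription factor, and Perk phosphorylates the initiation factor eIF2alpha, which favours translation of Atf4. Their targets include chaperones, disulfide isomerases, the machinery of ER-associated degradation and, for Atf4, genes of amino acid supply and of the stress response that Ddit3 (CHOP) marks. In the stomach, mucous and zymogenic cells secrete large amounts of mucin, trefoil factor and pepsinogen, and depend on this machinery. Splicing, cleavage and phosphorylation are not visible in gene-level values, so nothing below measures the activity of a sensor.

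The libraries held 14148147 to 16951640 reads in genes each, recovered from the steps of the FPKM values (reads scaled by gene length and library size). The 36 genes took 0.950% to 1.16% of these reads in inflamed and 0.708% to 1.02% in desert tumours. The sum of FPKM over all genes did not overlap between the groups, with 2.81e+05 to 3.56e+05 in the inflamed group and 2.37e+05 to 2.70e+05 in the desert group. After rescaling to a common sum (TPM, a scale on which every library has the same total), the median log2 difference of all tested genes, inflamed minus desert, moved from -0.01 to -0.28, so a difference of about this size depends on the scaling. Apc stood at 5.33 to 8.29 FPKM in inflamed and 3.00 to 5.57 in desert tumours, and Trp53 at 7.05 to 10.4 and 1.89 to 3.47. A gene-level value does not separate the floxed part from the rest, so it checks no label. Epithelial genes were present in both groups, since the 7 pan-epithelial markers summed to 3406 to 6381 FPKM in inflamed and 1566 to 2252 in desert tumours, with keratin gene Krt8 the highest. Their levels were not alike, as 5 of the 7 were called higher in inflamed tumours and 0 lower, with a median log2 difference of 1.51. Of 6 pit cell (surface mucous cell) markers, 5 were called higher in inflamed tumours, where they summed to 3604 to 34406 FPKM against 1.71 to 11.4 in desert tumours. Gkn2, the highest of them, was listed at 0 in 3 of the 5 desert tumours, so defining genes of the gastric surface were at or near 0 in tumours labelled as stomach. In bulk tumours fewer cells of a type and less RNA per cell cannot be told apart.

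The 36 genes differed in both directions, as the genes of the whole table did. Mucous-type genes (Ern2, Agr2) and Creb3l1 were many times higher in inflamed tumours, and part of the disulfide isomerases, chaperones and degradation genes were moderately higher there on the FPKM scale. The ubiquitous sensors, Sel1l, Derl1, Sec61a1, Atf4 and the stress effectors Trib3 and Chac1 were higher in desert tumours. With limma's moderated test on log2(FPKM + 1) and a Benjamini-Hochberg adjusted p under 0.05, 17 of the 36 were called higher in inflamed tumours, 9 lower and 10 not called. Of all tested genes 31% were called higher and 31.2% lower (62.2% in either direction), so the count of lower genes among the 36 is near that of the table. For 17 of the 36 the groups did not overlap (9 higher and 8 lower), against 48.9% of all tested genes. The median difference of the 36 was 0.28 on the log2 scale, and -0.01 over all tested genes. On the TPM scale 10 were called higher, 12 lower and 14 not called, against 22.5% higher and 41.7% lower over all tested genes, and the median of the 36 was -0.01. The counts of each role below are to be read against these shares of the table. The labels do not say that the 10 tumours came from separate animals, so p-values measure only the spread between these samples.

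**Figure D1:**
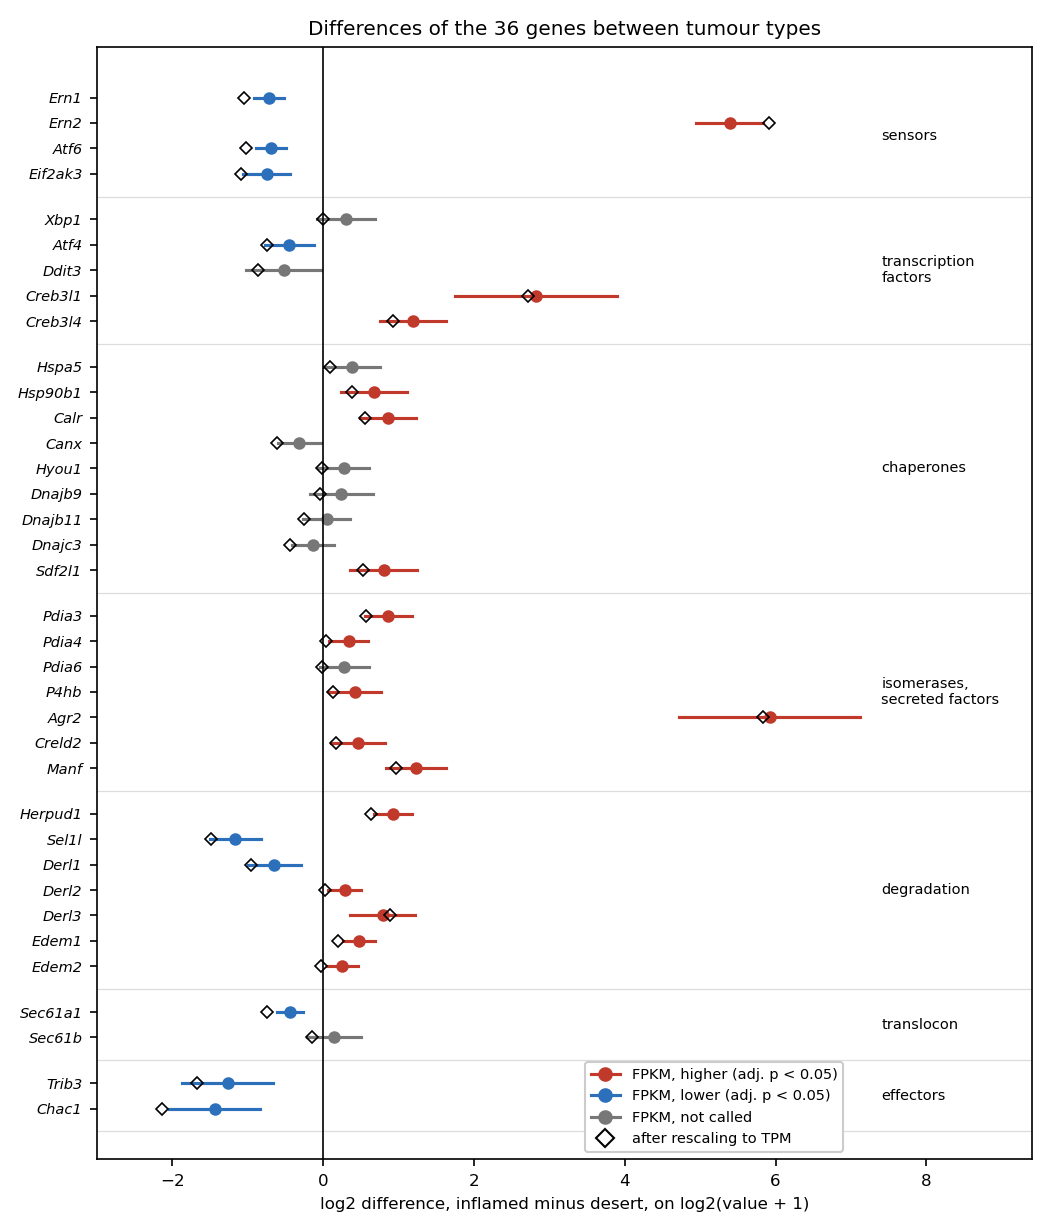
Log2 difference of each of the 36 genes, inflamed minus desert tumours (5 each), on log2(FPKM + 1), with points for estimates, bars for 95% confidence intervals and open diamonds for the same difference after rescaling to TPM. Ern2 and Agr2 lie beyond 5, all others but Creb3l1 lie between -1.44 and 1.23, and all but 2 of the diamonds (Ern2 and Derl3) lie to the left of their points.

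Promoter sequence was looked at for elements known from this response, because members that share an element could be compared. RefSeq promoters of build GRCm38.p6, from 250 bases before to 50 after the start of each gene, were matched for 29 of the 36 genes. The ER stress response element (ERSE: CCAAT, any 9 bases, then CCACG, searched on both strands) is known as a binding element of Atf6 with NF-Y. It was found in 8 of the 29 (27.6%), namely Calr, Canx, Creld2, Derl3, Dnajc3, Hsp90b1, Hspa5 and Pdia6, and in 39 of 32851 RefSeq promoters (0.119%). Hsp90b1 held 2 matches. The shorter ERSE-II (ATTGG, 1 base, CCACG) was found in Herpud1 and Dnajb11, and in 0.0365% of all promoters. The element TGACGTGG, known from binding of Atf6 and Xbp1, was found in none of the 29 and in 0.676% of all promoters. The core TGATGCAA, known from Atf4 and CHOP targets, was found in Chac1 and Herpud1 (6.9% of the 29) and in 0.895% of all promoters. The last 5 letters of TGACGTGG are the reverse complement of CCACG, so these elements share letters. Both the elements and the 36 genes were chosen as known from this response, so a high share among the 29 is no independent result. A match is a description of the letters only.

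The stretches around the matches are shown for the genes the comparison turns on: Hspa5, Canx and Pdia6 (ERSE, not called), Calr and Derl3 (ERSE, called higher), Herpud1 (ERSE-II, called higher) and Chac1 (called lower). Each is written 5′ to 3′ on the strand of the gene, with the letters of the motif in capitals. Where the match lies on the other strand, its letters read CGTGG and ATTGG, or TTGCATCA for the Atf4 core.
Hspa5, chr2:34772005-34772063, plus strand, 65 to 47 bases before the start: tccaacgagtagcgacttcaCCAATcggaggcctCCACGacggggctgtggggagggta
Canx, chr11:50325780-50325838, minus strand, 145 to 127 bases before the start: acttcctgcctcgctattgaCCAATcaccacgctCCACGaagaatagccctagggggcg
Pdia6, chr12:17266471-17266529, plus strand, 98 to 80 bases before the start: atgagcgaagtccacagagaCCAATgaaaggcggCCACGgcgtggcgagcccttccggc
Calr, chr8:84847055-84847113, minus strand, 162 to 144 bases before the start: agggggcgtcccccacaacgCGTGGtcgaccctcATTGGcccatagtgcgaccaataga
Derl3, chr10:75893222-75893280, plus strand, 156 to 138 bases before the start: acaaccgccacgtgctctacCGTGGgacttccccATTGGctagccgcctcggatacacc
Herpud1, chr8:94386357-94386407, plus strand, 52 to 42 bases before the start: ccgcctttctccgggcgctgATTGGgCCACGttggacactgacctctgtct
Chac1, chr2:119351029-119351076, plus strand, 193 to 186 bases before the start: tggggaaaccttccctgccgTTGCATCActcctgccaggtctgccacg

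The 8 genes with an ERSE held 4 genes called higher (Calr, Creld2, Derl3 and Hsp90b1), 0 called lower and 4 not called. The other 21 genes with a promoter held 10 called higher, 6 lower and 5 not called. After rescaling to TPM the counts were 2 higher and 2 lower of 8, and 5 higher and 7 lower of 21. Over all tested genes, 31% were called higher and 31.2% lower on the FPKM scale, and 22.5% and 41.7% on the TPM scale. The median FPKM-scale difference was 0.42 with and 0.25 without the element. No test compared these sets. Calr and Canx, a pair of lectin chaperones that both hold it, differed in opposite directions (0.86 and -0.32, the latter not called).

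Among the sensors, 3 of 4 were lower in inflamed tumours and the fourth was far higher, against 31.2% lower and 31% higher over all tested genes. Ern1 (chromosome 11, 106285476 to 106378678, as the table holds positions, which are not on the build of the promoters) encodes the ubiquitous Ire1. In order of tumour number, 1 to 5, the inflamed values were 10.1, 10.5, 11.0, 9.86 and 9.34 FPKM and the desert values 20.8, 16.3, 16.8, 15.01 and 18.3 (the same order is used for every gene). Every desert tumour lay above every inflamed one, and the desert mean was 1.72 times the inflamed mean (17.4 ± 2.23 against 10.2 ± 0.643, SD, n = 5 each; log2 difference -0.72, SE 0.09, limma adjusted p = 5.07e-05).

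Ern2 (chromosome 7, 121769116 to 121785430) encodes the Ire1 form of mucous epithelia. Its levels were 72.3, 81.1, 87.9, 82.0 and 56.0 FPKM in inflamed and 0.286, 1.15, 0.776, 1.72 and 0.462 in desert tumours. All inflamed tumours were above all desert tumours by a wide margin, with means of 75.9 ± 12.4 and 0.879 ± 0.574 and an 86.3-fold ratio of means. The log2 difference was 5.39 (SE 0.20, limma adjusted p = 6.47e-09). FPKM is scaled by gene length, so the 2 forms can be set beside each other: Ern2 was 5.998 to 8.32 times Ern1 in each inflamed tumour, whereas Ern1 was 8.72 to 72.8 times Ern2 in each desert tumour. The order of the 2 Ire1 genes was therefore opposite in the tumour types, in 5 of 5 tumours of each.

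Atf6 encodes the sensor that is released by cleavage in the Golgi. It stood at 9.38, 11.0, 8.80, 8.56 and 10.4 FPKM in inflamed and 17.8, 15.9, 15.01, 17.7 and 14.7 in desert tumours. The groups did not overlap (log2 difference -0.70, SE 0.09, limma adjusted p = 5.63e-05).

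Eif2ak3 encodes Perk, the kinase of eIF2alpha. Its values were 10.2, 10.4, 11.3, 8.34 and 11.9 FPKM in inflamed and 24.3, 19.5, 17.1, 13.8 and 17.5 in desert tumours. Desert tumour 1 was the highest and desert tumour 4 the lowest of its group, still above every inflamed tumour (-0.75, SE 0.14, limma adjusted p = 0.000734). The desert means of Atf6 and Eif2ak3 were 1.68 and 1.77 times the inflamed means, close to the 1.72 of Ern1. On the TPM scale the 3 differences were larger, at -1.05 for Ern1, -1.03 for Atf6 and -1.09 for Eif2ak3.

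Most gastric mucous markers were, like Ern2, higher in inflamed than in desert tumours. Within the groups the order of the tumours was not that of Ern2. In inflamed tumours 1 to 5 the pit cell markers summed to 3604, 5174, 7091, 34406 and 11789 FPKM. The desert sums were 4.68, 11.4, 6.66, 1.71 and 5.83 FPKM. Beside the pit cell markers above, 4 of 6 tested markers of chief and mucous neck cells were called higher in inflamed tumours and 1 (Aqp5) lower. The summed FPKM of all 8 in that list was 6872 to 14248 in the inflamed group and 196 to 363 in the desert group. Tff2 had the highest mean over all tumours of both groups. It was higher in inflamed tumours by 12.5 on the log2 scale, so other genes made up most of the desert sums. Cpb1 and Lipf were at 0 in every desert tumour. The part of cell makeup in Ern2, and in Agr2 and Creb3l1 below, was not tested.

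**Figure D2:**
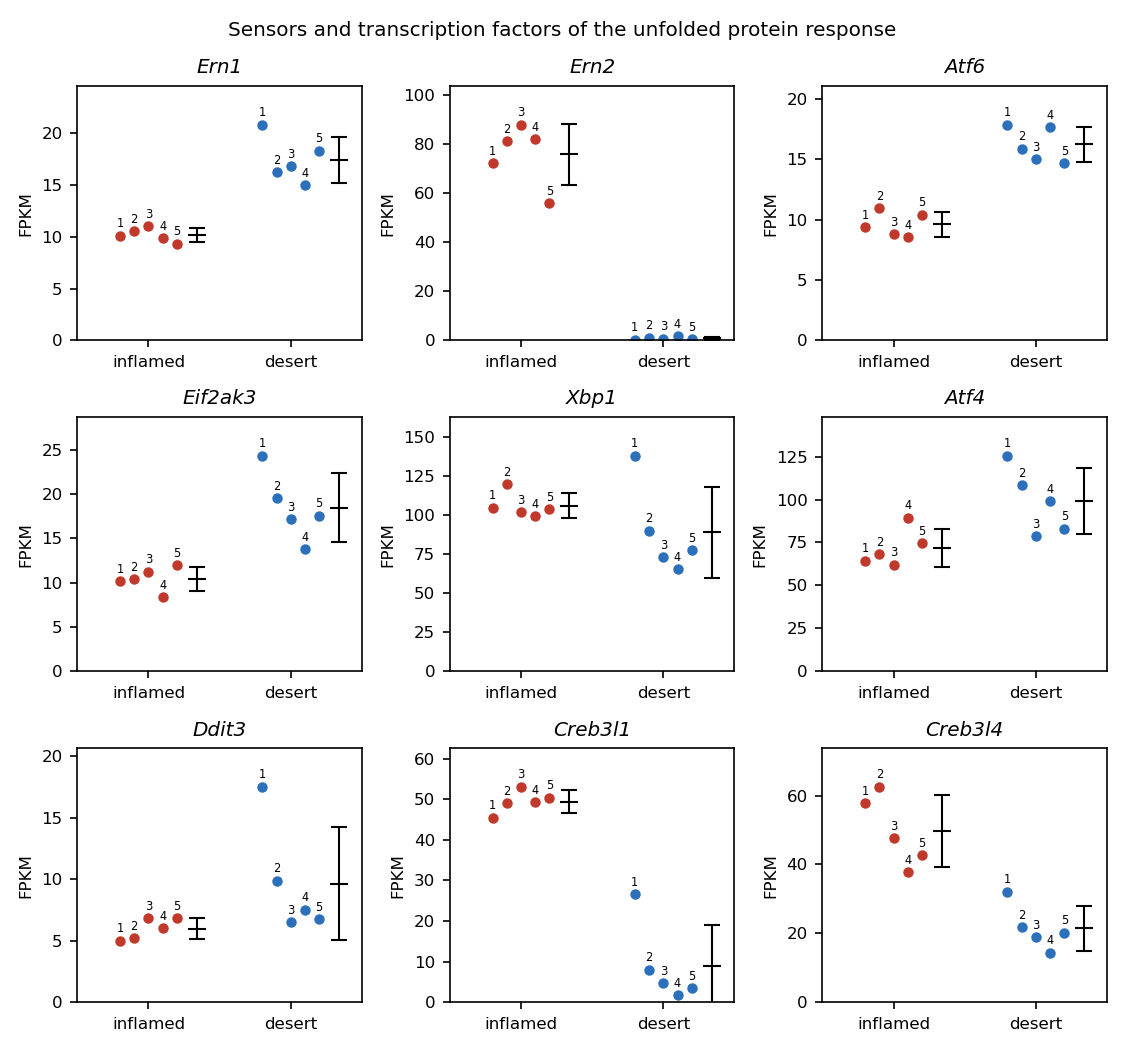
FPKM of the 4 sensors and 5 transcription factors in each tumour (numbered points), with the group mean and SD (n = 5) as bars beside the points; the lower SD bar of Creb3l1 in desert tumours is clipped at 0. Ern1, Atf6 and Eif2ak3 are higher in every desert tumour, Ern2, Creb3l1 and Creb3l4 in every inflamed tumour, and desert tumour 1 is the highest desert point in 8 of the 9 panels.

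Of the 5 transcription factors, the 2 of the CREB3 family were higher in inflamed tumours, Atf4 was lower, and Xbp1 and Ddit3 were not called. Creb3l1 encodes a factor that, like Atf6, is held in the ER membrane and released by cleavage, and is known in secretory and matrix-producing cells. It stood at 45.4, 49.0, 53.0, 49.2 and 50.4 FPKM in inflamed and at 26.7, 8.03, 4.73, 1.80 and 3.56 in desert tumours. The inflamed tumours were tightly grouped, while the desert tumours spread widely with tumour 1 far above the others (49.4 ± 2.75 against 8.96 ± 10.2; log2 difference 2.82, SE 0.49, limma adjusted p = 0.000446). Without desert tumour 1 the difference was 3.31.

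Creb3l4, a relative of Creb3l1 anchored in the same membrane, stood at 57.8, 62.5, 47.7, 37.7 and 42.8 FPKM in inflamed and 32.1, 21.9, 18.9, 14.4 and 20.3 in desert tumours. The groups did not overlap, although inflamed tumour 4 and desert tumour 1 were close (1.19, SE 0.20, limma adjusted p = 0.000371).

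Xbp1 encodes the factor that Ire1 activates by splicing, and is needed for the secretory form of zymogenic and plasma cells. Its levels were 105, 120, 102, 99.2 and 104 FPKM in inflamed and 138, 89.9, 73.2, 65.5 and 77.7 in desert tumours. Desert tumour 1 held the highest value of all 10 tumours and the other 4 desert tumours lay below every inflamed one. The difference was not called (0.30, 95% confidence interval -0.09 to 0.69, limma adjusted p = 0.161). Without desert tumour 1 it was 0.47 and called (limma adjusted p = 0.00342), and the adjusted p ran from 0.00342 to 0.992 over the alternatives other than a fold floor. The TPM difference was 0.00.

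Atf4, the factor translated when eIF2alpha is phosphorylated, stood at 64.4, 68.3, 62.0, 89.5 and 74.7 FPKM in inflamed and 125, 109, 78.6, 99.1 and 83.1 in desert tumours. Inflamed tumour 4 lay within the desert range and the other inflamed tumours below it. The gene was called lower (-0.45, SE 0.15, limma adjusted p = 0.0199).

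Ddit3 encodes CHOP, a target of Atf4 tied to prolonged stress. Its values were 5.005, 5.20, 6.84, 6.02 and 6.85 FPKM in inflamed and 17.5, 9.90, 6.53, 7.52 and 6.74 in desert tumours. Desert tumours 1 and 2 were the highest, and desert tumours 3 and 5 lay within the inflamed range. The difference was not called (-0.53, 95% confidence interval -1.03 to -0.03, limma adjusted p = 0.0628). On the TPM scale it was called lower (-0.86, limma adjusted p = 0.00504). It was also called lower with quantile scaling, with voom on the recovered reads, and without desert tumour 3 or desert tumour 5. The adjusted p ran from 0.00504 to 0.122 over the alternatives other than a fold floor.

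The 9 chaperones and cochaperones held 3 genes called higher in inflamed tumours, 0 lower and 6 not called, with a median difference of 0.27. Over all tested genes 31% were called higher and 31.2% lower, so the count of higher chaperones is near that of the table. Hspa5 encodes BiP, the Hsp70 chaperone of the ER that binds the sensors in unstressed cells and is the usual marker of this response. It stood at 195, 250, 213, 209 and 276 FPKM in inflamed and at 253, 179, 136, 170 and 151 in desert tumours. Desert tumour 1 lay within the upper inflamed range and the other 4 desert tumours below every inflamed one. The difference was not called (0.38, 95% confidence interval 0.01 to 0.75, limma adjusted p = 0.0666). Without desert tumour 1 it was 0.52 and called (limma adjusted p = 0.00617), on the TPM scale it was 0.08, and the adjusted p ran from 0.00617 to 0.664 over the alternatives other than a fold floor.

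Calr encodes calreticulin, the soluble lectin chaperone of glycoproteins. It stood at 292, 340, 270, 312 and 400 FPKM in inflamed and 241, 175, 138, 204 and 143 in desert tumours. The groups did not overlap, and the inflamed mean was 1.79 times the desert mean (0.86, SE 0.17, limma adjusted p = 0.0011). Sdf2l1, a partner of BiP, was called higher by 0.80 with overlapping ranges (36.7 to 58.1 and 15.9 to 37.6 FPKM). Hsp90b1, the ER form of Hsp90 (GRP94), was called higher by 0.67 (115 to 183 and 68.2 to 145 FPKM), but not on the TPM scale (0.38). Its exons share 10.3% of their bases with the antisense gene 1810014B01Rik, from which reads cannot be separated where strand is not known. The same limit holds for Sec61a1 (8.16% shared with antisense Gm44170), Eif2ak3 (8.05% with Gm43292) and Manf (4.71% with 4930524O07Rik). Other members shared less with antisense genes.

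Canx, the membrane-bound relative of calreticulin, had a difference of the other sign that was not called, at 74.6 to 112 FPKM in inflamed and 99.7 to 140 in desert tumours (-0.32). It was called lower on the TPM scale (-0.62), with quantile scaling, with voom on the recovered reads, and without inflamed tumour 5. Hyou1, the chaperone GRP170, and the J-domain cochaperones Dnajb9 and Dnajb11 differed by 0.27, 0.24 and 0.04 and Dnajc3 by -0.14; these 4 were not called, and the sign of the first 3 turned on the TPM scale. Without desert tumour 1, Hyou1, Dnajb9 and Hspa5 were called higher, so 6 rather than 3 of the 9 chaperones were. On the TPM scale 2 were called higher (Calr and Sdf2l1) and 2 lower (Canx and Dnajc3), against 22.5% and 41.7% of all tested genes.

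The isomerases and secreted factors held 6 of 7 genes called higher and 0 lower, with a median difference of 0.46. The shares over all tested genes were 31% and 31.2%. Agr2 encodes an isomerase needed for mucin folding in goblet and mucous cells (chromosome 12, 36042906 to 36054086). It stood at 440, 919, 461, 543 and 563 FPKM in inflamed and 13.3, 22.0, 7.56, 1.02 and 11.4 in desert tumours. Inflamed tumour 2 was far above the rest of its group and desert tumour 4 far below, yet the groups were far apart (585 ± 194 against 11.1 ± 7.71). The ratio of means was 52.9 and the log2 difference 5.92 (SE 0.54, limma adjusted p = 4.6e-06). On log2(FPKM + 1) this was the largest difference of the 36 genes, while Ern2 had the larger ratio of means and the larger difference on the TPM scale (5.91 against 5.83). Agr2, Ern2 and Creb3l1 were the 3 that passed a test against a 2-fold floor.

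Manf encodes a small secreted protein induced by ER stress. It stood at 40.6, 49.2, 34.1, 47.3 and 55.1 FPKM in inflamed and 27.6, 19.6, 13.5, 17.3 and 17.1 in desert tumours. The lowest inflamed tumour was above the highest desert tumour (1.23, SE 0.18, limma adjusted p = 0.000144).

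Pdia3 encodes ERp57, the isomerase that works with calreticulin and calnexin. Its values were 285, 339, 269, 288 and 355 FPKM in inflamed and 234, 166, 147, 154 and 150 in desert tumours. Desert tumour 1 was the nearest to the inflamed range, without entering it (0.86, SE 0.14, limma adjusted p = 0.000322). The difference of Pdia3 equalled that of its partner Calr to 2 decimals on the log2 scale.

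The other 4 genes of the group differed less, with overlapping ranges. Creld2, P4hb (the major protein disulfide isomerase) and Pdia4 were called higher by 0.46, 0.42 and 0.34, and Pdia6 differed by 0.28 without a call. None of these 4 was called on the TPM scale, where Pdia6 turned to -0.02, so that 3 of 7 were called there. The count was also 3 without inflamed tumour 2, without inflamed tumour 5, without desert tumour 3 and without desert tumour 5, each of which ended the calls of Creld2, P4hb and Pdia4. The calls of Creld2 and P4hb also ended without desert tumour 4 and with no filter on low values, those of P4hb and Pdia4 without desert tumour 2, and that of P4hb without inflamed tumour 4. Quantile scaling and the replicate block also ended the calls of P4hb and Pdia4, and voom that of Pdia4. P4hb was the most abundant of these 4, at 338 to 488 FPKM in inflamed and 253 to 429 in desert tumours.

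ER-associated degradation moves misfolded protein to the cytosol for destruction, and its 7 genes split. Herpud1, Derl3, Edem1, Derl2 and Edem2 were called higher in inflamed tumours, and Sel1l and Derl1 lower. Over all tested genes the shares were 31% higher and 31.2% lower. Herpud1 encodes a membrane protein that joins the degradation complex and is strongly induced by ER stress. It stood at 99.98, 85.2, 107, 85.7 and 77.4 FPKM in inflamed and 52.1, 48.8, 43.9, 52.2 and 40.3 in desert tumours. The groups were well apart (0.92, SE 0.11, limma adjusted p = 3.76e-05), and desert tumour 4, not 1, was the highest of its group.

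Sel1l encodes the adaptor that holds the central ubiquitin ligase Hrd1 in place. It stood at 21.4, 21.4, 22.5, 24.4 and 21.8 FPKM in inflamed and 72.9, 57.6, 48.9, 36.2 and 47.0 in desert tumours. The inflamed tumours were nearly alike, with the smallest spread of the 36 genes in that group (SD 0.08 on the log2 scale), while the desert tumours ranged widely above them. The desert mean was 2.36 times the inflamed mean (-1.16, SE 0.16, limma adjusted p = 6.97e-05).

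The Derlins, membrane proteins that help form the exit channel, did not differ in the same direction. Derl1 was lower in inflamed tumours by -0.65 with no overlap (31.7 to 39.6 and 47.1 to 88.5 FPKM). Derl2 was higher by 0.28 (7.09 to 9.24 and 5.66 to 7.89 FPKM) and Derl3 by 0.79 (1.19 to 3.13 and 0.623 to 1.504 FPKM), both with overlap. Derl1 was the most abundant of the 3 in both groups and Derl3 the least. Derl3 is known in plasma cells, and all 6 tested plasma cell markers were called higher in inflamed tumours. The 8 plasma markers summed to 207 to 361 FPKM in inflamed and 83.3 to 94.8 in desert tumours. Sdc1, which epithelium also expresses, had the highest mean of them and made up most of the desert sums. Jchain, a defining plasma cell gene, stood at 72.2 to 208 FPKM in inflamed and 0 to 0.105 in desert tumours. The part of plasma cells in Derl3 or Xbp1 was not tested.

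Edem1 and Edem2 encode proteins of a mannose-trimming enzyme family that send misfolded glycoproteins to degradation. Edem1 was higher by 0.47 with no overlap (19.7 to 26.5 and 13.8 to 18.0 FPKM) and Edem2 by 0.25 with overlap (23.6 to 29.5 and 20.3 to 25.4 FPKM). On the TPM scale Edem2 turned to -0.04 and Edem1 stood at 0.19, both not called, and 2 of the 7 genes (Herpud1 and Derl3) were called higher. The count of 5 fell to 3 without inflamed tumour 2, inflamed tumour 5, desert tumour 3 or desert tumour 5, each of which ended the calls of Derl2 and Edem2, whereas Sel1l and Derl1 were called lower in each of these settings. The call of Derl2 also ended without inflamed tumour 4, that of Edem2 without inflamed tumour 1 or desert tumour 2, and both with no filter on low values. The replicate block also ended the call of Derl2, and quantile scaling and voom that of Edem2.

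The 2 genes of the Sec61 channel, through which nascent chains enter the ER, differed from each other. Sec61a1, the channel itself, was lower in inflamed tumours by -0.44 with no overlap (37.3 to 44.5 and 50.6 to 60.3 FPKM, limma adjusted p = 0.0006). Sec61b, a small subunit, differed by 0.14 with wide overlap (33.6 to 57.5 and 34.8 to 53.1 FPKM) and was not called.

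Both stress effectors were lower in inflamed tumours. Trib3 encodes a pseudokinase induced by Atf4 and CHOP. It stood at 5.34, 4.91, 3.28, 3.62 and 5.26 FPKM in inflamed and 21.7, 13.7, 10.9, 5.64 and 13.2 in desert tumours. Desert tumour 4 came close to the inflamed range, and desert tumour 1 was highest. The desert mean was 2.91 times the inflamed mean (-1.27, SE 0.27, limma adjusted p = 0.00196).

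Chac1 encodes an enzyme that degrades glutathione and is a target of the same arm. Its values were 1.46, 0.580, 0.524, 2.85 and 2.72 FPKM in inflamed and 6.97, 6.15, 6.07, 4.59 and 4.57 in desert tumours. The inflamed tumours fell into a lower pair (2 and 3) and a higher pair (4 and 5) with tumour 1 between, all below the desert tumours. The desert mean was 3.49 times the inflamed mean (-1.44, SE 0.27, limma adjusted p = 0.000832). Chac1 also had the widest spread of the 36 genes in inflamed tumours (SD 0.64 on the log2 scale).

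**Figure D3:**
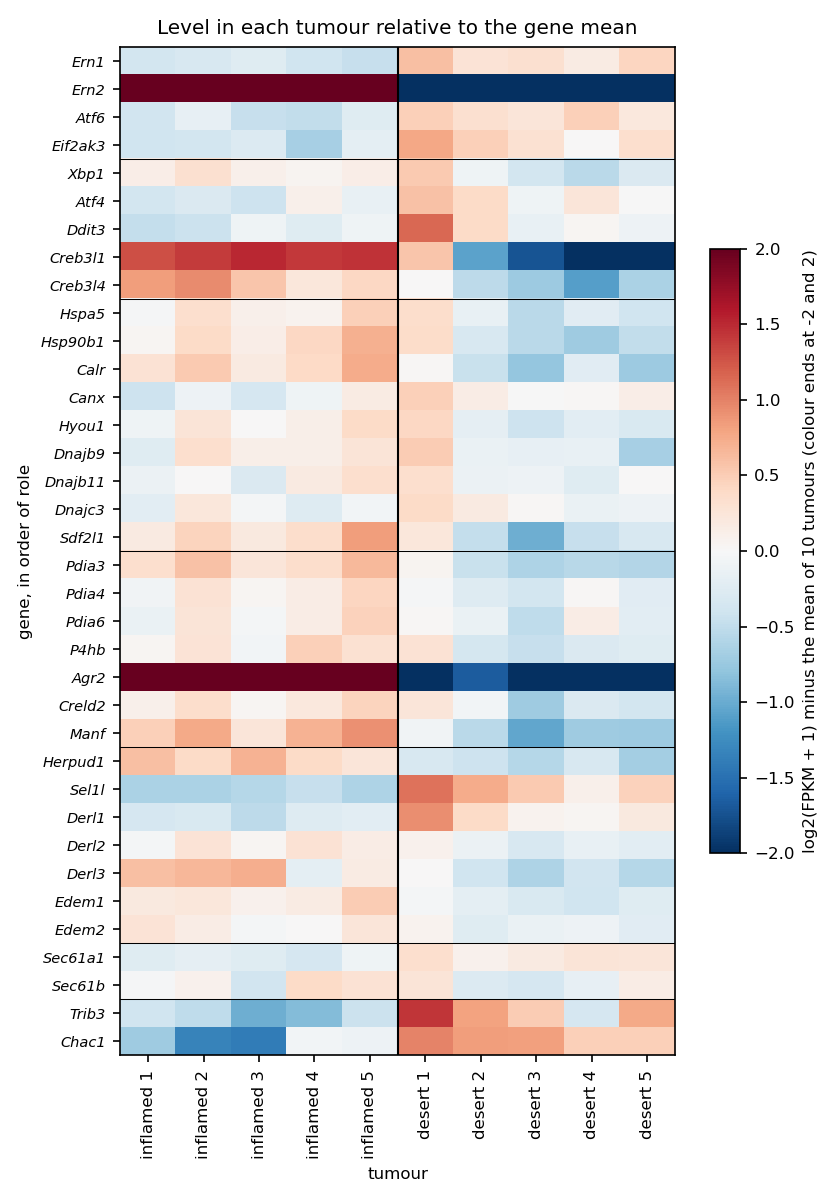
Level of each of the 36 genes in each tumour as log2(FPKM + 1) minus the gene's mean over the 10 tumours, with genes in order of role and colours ending at -2 and 2. Ern2, Agr2 and Creb3l1 separate the groups most strongly, Sel1l, Trib3 and Chac1 the other way, and desert tumour 1 is the highest desert tumour in most rows.

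A single desert tumour shaped much of the desert spread. Desert tumour 1 held the highest desert value for 31 of the 36 genes (86.1%), while it was highest for 27.8% of all tested genes. On the TPM scale it was highest for 27 of the 36, against 16.2% of all tested genes. The 5 exceptions on the FPKM scale were Agr2 and Ern2, Herpud1, Pdia4 and Pdia6. In inflamed tumours, tumour 5 was highest for 17 of the 36 (47.2%), against 20.1% of all tested genes. Genes measured in 1 library share that library, so these counts describe 2 libraries and carry no test. The median SD of the 36 within desert tumours was 0.29 on the log2 scale, against 0.21 over all tested genes, and 0.20 against 0.19 within inflamed tumours.

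Leaving out desert tumour 1 gave 21 of the 36 called higher and 9 lower, against 31% and 30.5% of all tested genes, and the groups did not overlap for 27 of the 36, against 53.3% of all tested genes. The 4 genes gained were Xbp1, Hspa5, Hyou1 and Dnajb9. Desert tumour 1 was picked here for being highest in most of the 36. A larger gain among them than in the whole table follows from that choice and is no further result. The same tumour was highest for 88 of 124 other tested genes of the pathway (71.0%) on the FPKM scale, against 27.8% of all tested genes, and for 58 of them on the TPM scale, against 16.2%. Among these, chosen after their values were seen, Ero1a, which reoxidises the isomerases, stood at 89.3 FPKM there and at 8.68 to 26.7 in the other desert tumours, and Kdelr3, a retrieval receptor for ER proteins, at 19.8 and 1.94 to 6.80. No label sets desert tumour 1 apart. Its library had the fewest genes above 0 of all libraries, at 23554, against 24659 to 25153 in the other desert libraries. Its sum of FPKM was the highest of the desert group, at 2.70e+05 against 2.37e+05 to 2.50e+05. The part of these library traits was not tested.

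**Figure D4:**
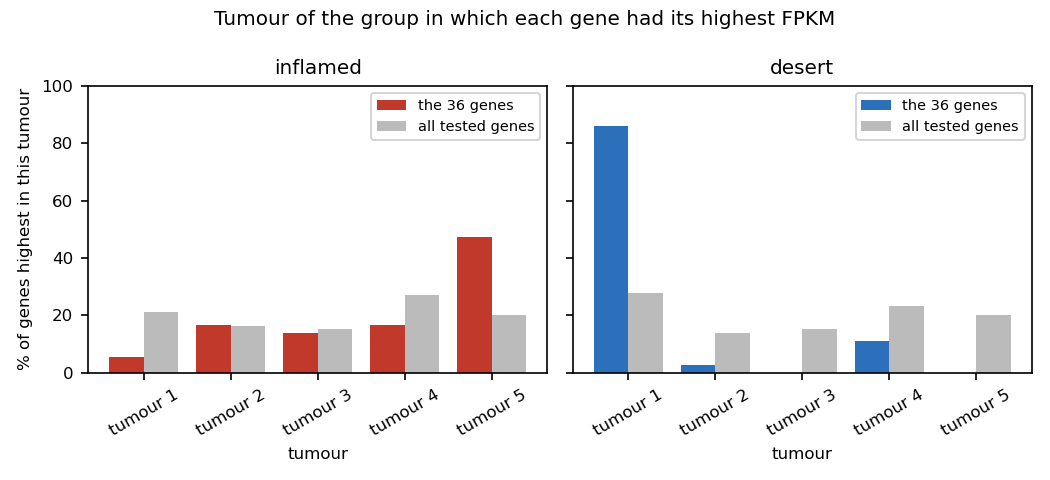
Share of the 36 genes (coloured bars) and of all tested genes (grey bars) that had their highest FPKM of the group in each tumour, in % for the 5 inflamed (left) and 5 desert tumours (right). Desert tumour 1 was highest for 86.1% of the 36 genes and 27.8% of all tested genes.

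The rest of the pathway was followed in 8 lists of other genes, 127 genes in all, of which 126 were found and 124 tested. They gave 45 called higher in inflamed tumours (36.3%), 30 lower (24.2%) and 49 not called, against 31% higher and 31.2% lower over all tested genes, with a median difference of 0.11. On the TPM scale 22 were called higher and 50 lower, against 22.5% and 41.7% over all tested genes, so the balance of the lists shifted with that of the whole table. The counts of each list below are to be read against these shares.

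Of 22 tested targets of Atf4 and the integrated stress response, 2 were called higher and 11 lower (2 and 15 on the TPM scale), with a median difference of -0.45. Phgdh, the first enzyme of serine synthesis, was lower in inflamed tumours by -2.83 (8.38 to 14.2 and 68.5 to 139 FPKM). Ddit4, an inhibitor of mTOR signalling and the most abundant of the list, was lower by -1.68 (41.4 to 68.2 and 145 to 216 FPKM). Slc7a11, the cystine transporter, went the other way by 1.41, at 1.58 to 2.18 FPKM in inflamed and 0.0328 to 0.135 in desert tumours. The direction of most of this list is the one seen in Atf4, Trib3 and Chac1, without a test that ties them. Without desert tumour 1, 4 of the targets were called higher.

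Of 12 tested genes of eIF2 control, 4 were called higher and 4 lower (3 and 6 on the TPM scale). Subunits of the same exchange factor, eIF2B, differed in opposite directions. Eif2b1 was higher by 1.07 (19.99 to 23.5 and 8.58 to 11.9 FPKM), Eif2b2 lower by -0.84 (19.1 to 24.4 and 37.6 to 43.9 FPKM), and Eif2b5, the most abundant of the list, lower by -0.65 (25.0 to 27.1 and 37.4 to 46.6 FPKM), all without overlap.

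Of 17 tested other folding and oxidation genes, 9 were called higher and 1 lower (5 and 3 on the TPM scale). Pdia2, an isomerase known from the pancreas, was higher by 2.24, with 0.414 to 20.3 FPKM in inflamed and 0.103 to 0.337 in desert tumours. Fkbp11, a prolyl isomerase of secretory cells, was lower by -1.14 (4.44 to 6.60 and 11.1 to 15.4 FPKM). Txndc5, the most abundant, was not called (-0.08). Of 8 pancreatic acinar markers 7 fell below the filter, and Cela1, the only one tested, overlapped between the groups (67.7 to 192 and 79.8 to 147 FPKM).

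Of 14 genes of N-glycosylation and glycan trimming, 7 were called higher and 1 lower (3 and 4 on the TPM scale). Mogs, the first glucosidase to trim the glycan, was higher by 0.80 (20.8 to 30.6 and 12.6 to 15.2 FPKM). Stt3b, a catalytic subunit of oligosaccharyltransferase, was lower by -0.86 (53.8 to 73.7 and 86.1 to 132 FPKM), while Ddost, a subunit of the same enzyme and the most abundant of the list, was called higher by 0.60 with overlap.

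Of 19 genes of COPII vesicles and retrieval, 8 were called higher and 3 lower (3 and 6 on the TPM scale). Kdelr2, a retrieval receptor for ER proteins, was higher by 1.19 (65.0 to 76.1 and 23.5 to 48.7 FPKM) and the cargo receptor Tmed2, the most abundant, by 1.14 (109 to 123 and 45.1 to 71.8 FPKM). Sec24a, a coat subunit, was lower by -0.52 (4.37 to 5.48 and 6.81 to 8.03 FPKM).

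Of 21 other genes of translocation and signal peptide removal, 9 were called higher and 8 lower (4 and 10 on the TPM scale). Ssr4, a subunit of the complex beside the channel, was higher by 0.95 (42.2 to 56.6 and 18.6 to 29.2 FPKM). Sec63, the J-domain partner of the channel, was lower by -0.996 (14.4 to 19.5 and 28.6 to 39.6 FPKM), the direction of Sec61a1. Ssr3, the most abundant, was not called (0.01).

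Of 13 other degradation genes, 3 were called higher and 1 lower (0 and 4 on the TPM scale). Selenos, a selenoprotein of the degradation complex, was lower by -0.40 (45.7 to 52.3 and 56.6 to 96.1 FPKM). Vcp, the ATPase that extracts the substrates and the most abundant of the list, was not called (-0.03).

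Of 6 tested relatives of Creb3 and Atf6 with their proteases, 3 were called higher and 1 lower (2 and 2 on the TPM scale). Creb3 itself was higher by 0.67 (31.4 to 36.4 and 18.8 to 23.2 FPKM), in the direction of Creb3l1 and Creb3l4. Creb3l2, a relative known from cartilage, was lower by -1.51 (9.60 to 11.9 and 23.6 to 49.0 FPKM). All 4 tested chondrocyte markers of 7 were called lower as well, and the 7 summed to 51.1 to 68.1 FPKM in inflamed and 363 to 566 in desert tumours, with Comp the highest. The part of these cells in Creb3l2 was not tested.

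**Figure D5:**
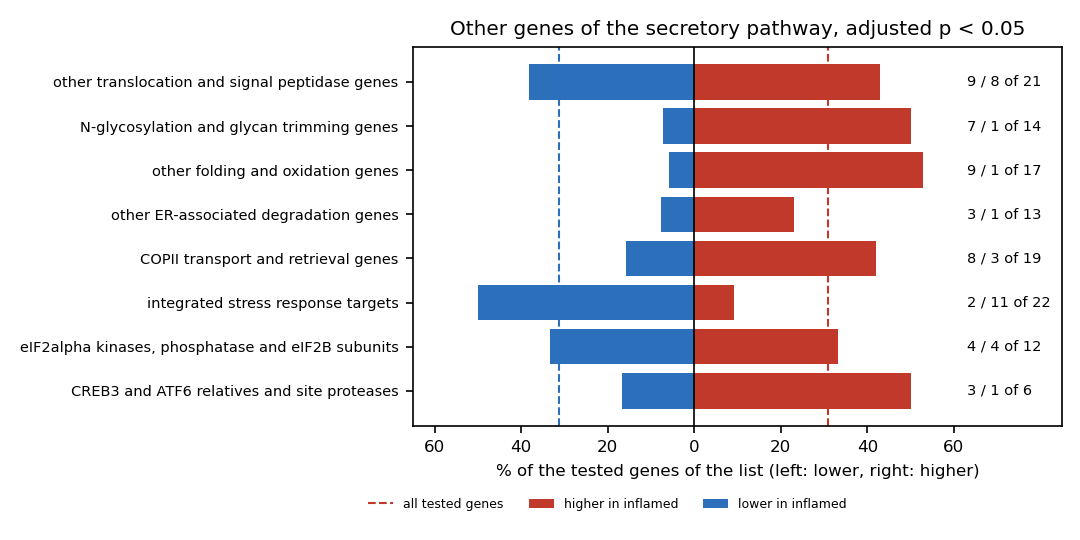
Share of the tested genes of each of 8 lists that was called lower (left, blue) or higher (right, red) in inflamed tumours on the FPKM scale, in %, with the shares over all tested genes as dashed lines and the counts higher / lower of tested at the right. The integrated stress response targets extend furthest to the left (11 of 22); on the TPM scale the counts of higher against lower turn in the glycosylation, degradation, COPII and translocation lists.

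Connective tissue and blood cell markers, which could also carry secretory pathway genes, were summed in the same way. The 7 fibroblast markers summed to 95.4 to 282 FPKM in inflamed and 61.0 to 127 in desert tumours, with Col1a1 the highest, and 3 were called higher. The 4 leukocyte markers, with Laptm5 the highest, summed to 23.2 to 69.3 and 6.25 to 14.8 FPKM, and all 4 were called higher. Their part in the results above was not tested.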

How the data were processed

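Bulk RNA of 10 mouse stomach tumours (5 inflamed, 5 desert, 1 library each) was deposited by the authors as FPKM in 1 table; no aligner, counter or strand setting is named in the labels, and the submitters' processing notes name the build mm10. FPKM times gene length gave whole multiples of 1 step per library (100% of nonzero values, tolerance 0.01), so reads could be recovered. Where the mean FPKM reached 0.5, the comparison used log2(FPKM + 1), which shrinks differences at low values. The test was two-sided, from limma 3.58.1 (R 4.3.3) with its trend and robust options, tumour type as the sole term and Benjamini-Hochberg adjustment over 16750 genes. The analysis was tested on simulated data. Values in all tumours are given for sensors, transcription factors, Hspa5 and the 8 other called genes of largest difference without overlap. Of each pathway list the largest called rise and fall without overlap and the gene of highest mean are named, and of each marker list the gene of highest mean. The members and lists were chosen with earlier results of these data known. Tables and plots used Python 3.11.15 with pandas 2.3.3, numpy 2.4.6 and matplotlib 3.10.9. Alternatives were pseudocounts of 0.1 and 0.01, no filter or a mean FPKM of at least 5, and TPM, median-of-ratios and quantile scaling. Further alternatives were limma without its trend and robust options, a fold floor of 2, and voom on recovered reads (mean of at least 10). A replicate block on tumour number and the leaving out of single libraries were also used. Of the promoters, 23 of 29 begin as a GENCODE M21 transcript does. Gene positions are as the table holds them and differ from the promoter build. Hspa5 starts at 34661982 in the table, while its GRCm38.p6 promoter lies at 34771840 to 34772139. The table's positions are therefore not to be read as mm10. Hm13 was not matched. Protein sequences were not analysed here.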

Additional observations from a re-analysis of the deposited data

Results flagged for a closer look

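Among 72 sets of 5 tumours (36 genes in each tumour type), 9 had 1 tumour whose gap to its nearest neighbour exceeded 0.71 of the whole range, the 95% critical value of Dixon's test. Chance flags about 1 in 20 such sets, and the genes share their libraries. Desert tumour 1 was the tumour that stood apart in 6 of the 9. Creb3l1, the membrane-bound factor, stood at 26.7 FPKM there, with the next desert tumour at 8.03. The chaperones Hsp90b1, Canx and Hyou1 stood at 144.8, 140.2 and 37.5 FPKM there, with the next at 89.9, 111.3 and 24.3. The isomerases Pdia3 and P4hb stood at 233.9 and 428.9 FPKM, with the next at 166.4 and 294.9. Inflamed tumour 2 stood apart for Agr2, the mucin isomerase, at 918.7 FPKM with the next at 563.4, and for Xbp1 at 119.6 with the next at 104.8. Inflamed tumour 5 stood apart for Edem1, a degradation gene, at 26.5 FPKM with the next at 21.7.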

How the results depend on the processing

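Of the 36 genes, 3 (Ern2, Creb3l1 and Agr2) kept direction and call under all 21 alternatives, and 19 under all but the fold floor of 2; of the 19, Derl3 and Chac1 were not tested at a mean FPKM of at least 5 and so had 20 alternatives. That floor left 3 of the 36 higher and 0 lower, and 1137 and 643 of all genes. A mean FPKM of at least 5 gave 2784 genes higher and 3070 lower, with fewer genes tested. Rescaling to TPM left 10 of the 36 higher, and turned the sign of Hyou1 (-0.016), Dnajb9 (-0.048), Dnajb11 (-0.25), Pdia6 (-0.019), Edem2 (-0.036), and Sec61b (-0.15), of which Edem2 was called on the FPKM scale. It also turned 17 of the 124 other pathway genes, among them Ssr3 (-0.29) and, as the only called one, Spcs1. Median-of-ratios scaling kept the direction and call of all 36, with 17 higher and 9 lower. Quantile scaling turned Dnajb11 (-0.074) and Ssr3 (-0.15), as did voom (-0.025 and -0.062). With single libraries left out, the uncalled Dnajb11 (-0.034 to 0.13), Ssr3 (-0.056 to 0.068), Txndc5 (-0.18 to 0.085) and Vcp (-0.090 to 0.040) took both signs. With 1 library left out, 12 to 21 of the 36 were called higher and 9 to 10 lower, and 4829 to 5225 and 4911 to 5134 of all genes. The groups did not overlap for 17 to 27 of the 36, with 27 without desert tumour 1. Tumour numbers do not pair the libraries (correlation of same-numbered deviations -0.07 to 0.08), and with the number as a replicate block 14 of the 36 were called higher and 9 lower, and 4958 and 4967 of all genes. The cause of these shifts was not tested. Called differences near the size of the shift in median between FPKM and TPM depend on the scaling, and genes at low FPKM such as Derl3 and Chac1 rest on fewer reads.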
